A study of Saccharomyces cerevisiae BY4741 with 6 samples.

Results

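The genes of arginine synthesis and breakdown were followed in yeast cells treated with the aminoglycoside antibiotic neomycin. They are 10 of the 5449 genes measured on the arrays, chosen by their known place in the pathway, and each of the 10 has a single probe set. The 8 synthesis genes are *ARG2*, *ARG7*, *ARG8*, *ORT1*, *CPA1*, *ARG3*, *ARG1* and *ARG4*, and the 2 breakdown genes are *CAR1* and *CAR2*. The cells were *Saccharomyces cerevisiae* BY4741, a haploid laboratory strain of mating type a without functional *HIS3*, *LEU2*, *MET17* and *URA3*, a background that the treated and the untreated cultures share and in which the arginine genes are intact. There were 3 cultures with 10 mg/mL neomycin sulfate for 4 h and 3 untreated cultures, all in rich YPD medium at 30 °C, and every culture supplied the RNA for 1 Affymetrix Yeast Genome 2.0 array. Values are GCRMA signals on the log2 scale, where 1 unit equals a doubled signal, and log2 fold changes are neomycin minus untreated means of 3 arrays each.

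Yeast makes arginine from glutamate in a route split between compartments. Acetylated intermediates are carried through the mitochondrial matrix to ornithine, which leaves the organelle and is converted in the cytosol to citrulline, argininosuccinate and arginine. When arginine is plentiful, arginase and ornithine aminotransferase return it to ornithine, urea and glutamate semialdehyde, from which proline and glutamate are formed. The pathway is known for its opposed control: Gcn4 activates the synthesis genes under amino acid starvation, while the Arg80-Arg81-Arg82-Mcm1 complex represses synthesis genes and activates the breakdown genes when arginine is present.

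As a check of the strain, *LEU2*, *MET17* and *URA3* read between 3.21 and 4.90 on the 6 arrays, whereas *HIS3*, which BY4741 carries as a partial deletion, read 10.23 to 10.66. The a-cell genes *STE2*, *MFA1* and *MFA2* read 11.63 to 12.86, and *MF(ALPHA)1*, a gene of α cells, read 3.12 to 3.87. Neomycin replicate 1 stood apart from the other treated cultures. When the 100 most changed genes were picked from the other 2 treated arrays, it showed a median of 0.494 of their change. The same figure was 0.968 for neomycin replicate 2 and 1.13 for neomycin replicate 3. Results on the arginine genes are given with and without this array. The 100 genes on which it stood apart include 6 of the synthesis genes (*ARG7*, *ORT1*, *CPA1*, *ARG3*, *ARG1* and *ARG4*), so larger changes without it follow from how it was singled out, and the values without it are a description and no separate evidence of a change.

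The first question was whether the synthesis genes changed with neomycin. Of the 8 genes, 6 were higher on all neomycin arrays than on any untreated array, namely all 4 that act in the cytosol (*CPA1*, *ARG3*, *ARG1* and *ARG4*) together with *ARG7* and *ORT1*. Over all genes, 5.58% were separated upwards in this way, 12.8% downwards and 18.4% in either direction. The median log2 fold change of the 8 genes was 1.03, against −0.05 over all genes. The ratios of mean signals (neomycin over untreated) ran from 6.12 for *ARG1* to 1.11 for *ARG8*. Each value is an average over a whole culture, in which more cells expressing a gene and more RNA per cell cannot be told apart. With 3 arrays in each group the smallest p of an exact 2-sided permutation test is 0.1, which each of these 6 genes reached.

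In the mitochondrial part, *ARG2* encodes the acetylglutamate synthase that opens the route. Its signal was 7.38, 8.27 and 8.02 on neomycin replicates 1, 2 and 3, and 7.79, 7.64 and 7.85 on untreated replicates 1, 2 and 3. The groups overlapped, since neomycin replicate 1 had the lowest of the 6 values and neomycin replicates 2 and 3 the highest. This gave a log2 fold change of 0.13 (limma, 95% interval −0.36 to 0.62, adjusted p = 0.857). Without neomycin replicate 1 it was 0.38 (adjusted p = 0.229), and without neomycin replicate 2 it was −0.061.

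*ARG8* encodes acetylornithine aminotransferase, which uses glutamate as the nitrogen donor. It read 8.33, 9.01 and 8.91 on the neomycin arrays, against 8.73, 8.27 and 8.84 on the untreated arrays. As with *ARG2*, neomycin replicates 2 and 3 were the highest, but here both neomycin replicate 1 and untreated replicate 2 were low. Its change on the log2 scale was 0.14 (95% interval −0.36 to 0.63, adjusted p = 0.851 from limma), with 0.35 when neomycin replicate 1 was left out and −0.037 when untreated replicate 2 was. The intervals of *ARG2* and *ARG8* therefore allow changes of up to 0.62 and 0.63 upwards.

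*ARG7*, the ornithine acetyltransferase that releases ornithine and recycles the acetyl group, behaved otherwise. Its signal was 9.45, 10.46 and 10.46 with neomycin, and 8.79, 8.49 and 9.11 without it. The groups did not overlap, although neomycin replicate 1 stood closer to untreated replicate 3 than to the other treated cultures. The log2 fold change of 1.33 (SE 0.29, 95% interval 0.67 to 1.99) ranked 16 of 5449 genes from the highest, with an adjusted p of 0.103 from limma, and it was 1.67 (adjusted p = 0.00437) without neomycin replicate 1.

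*ORT1* encodes the carrier of the inner membrane that exports ornithine to the cytosol. It had values of 8.38, 8.94 and 8.97 on the neomycin arrays and 7.96, 7.93 and 8.12 on the untreated arrays. The untreated cultures lay close together (SD 0.10, n = 3), and all treated cultures were above them. Its log2 fold change was 0.76 (SE 0.17, 95% interval 0.37 to 1.15, adjusted p = 0.119 from limma), or 0.95 (adjusted p = 0.00720) without neomycin replicate 1. Thus, of the 4 genes whose products work in the mitochondrion, *ARG7* and *ORT1* were separated between the conditions and *ARG2* and *ARG8* were not.

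**Figure D1:**
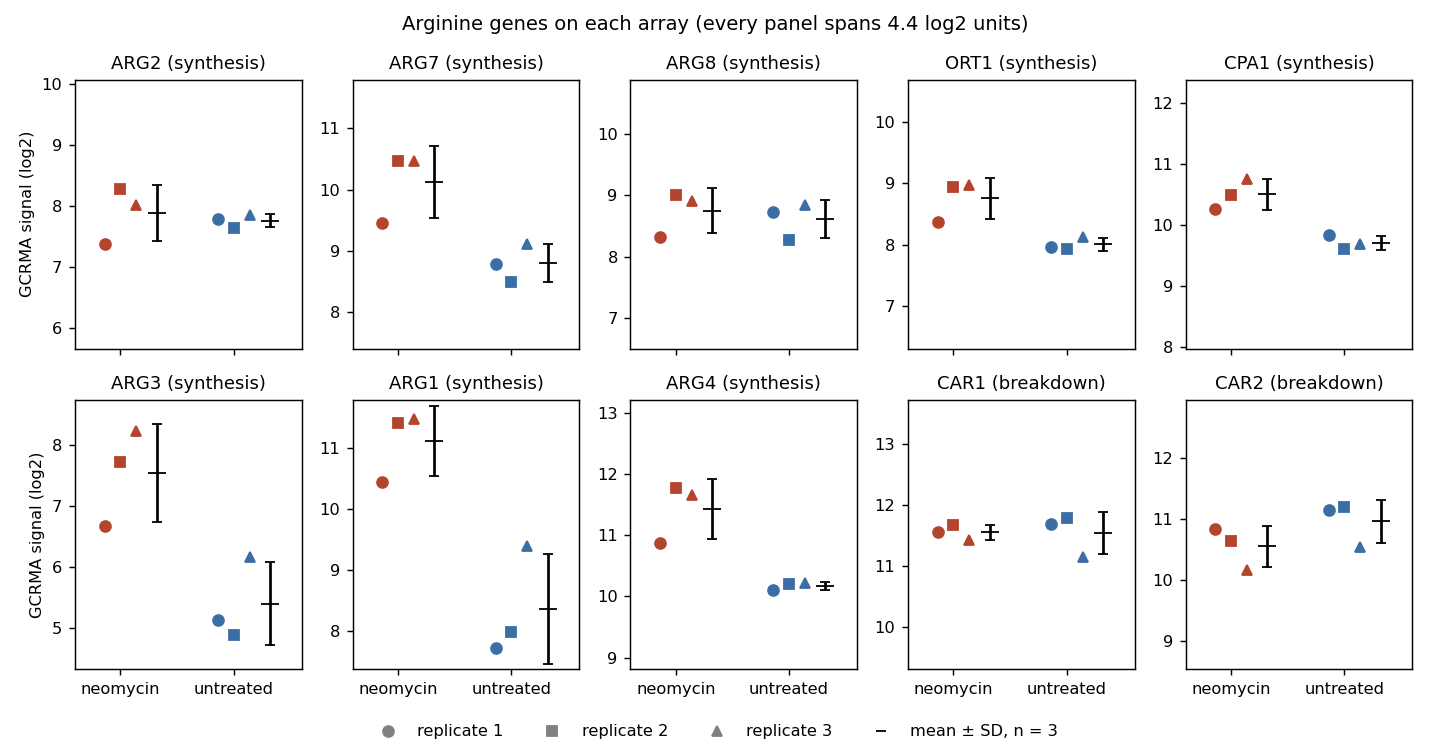
GCRMA signal (log2, vertical axis) of the 10 arginine genes on each array, with neomycin on the left and untreated on the right of each panel, a symbol for each replicate and black bars for mean ± SD (n = 3). *CPA1*, *ARG3*, *ARG1*, *ARG4*, *ARG7* and *ORT1* are higher on all neomycin arrays, while the groups overlap for *ARG2*, *ARG8*, *CAR1* and *CAR2*.

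In the cytosol, *CPA1* encodes the small subunit of the arginine-specific carbamoyl phosphate synthetase. Its signal was 10.25, 10.49 and 10.75 with neomycin, and 9.83, 9.60 and 9.69 in untreated cells. All treated cultures were above all untreated ones, and the SD of the treated cultures was 0.25 (n = 3), greater than that of 74.9% of all genes. limma gave a log2 fold change of 0.79 (SE 0.14, 95% interval 0.46 to 1.13, adjusted p = 0.0631), and 0.92 (adjusted p = 0.0151) without neomycin replicate 1.
A separate probe set measures YOR302W, the short reading frame in the *CPA1* leader that encodes the arginine attenuator peptide, through which arginine lowers *CPA1* translation. It read 8.71, 8.62 and 9.26 on the neomycin arrays, against 7.94, 8.0 and 7.66 on the untreated arrays, again without overlap. Its log2 fold change of 0.99 (SE 0.18, 95% interval 0.57 to 1.42, adjusted p = 0.0631 from limma) lay near that of *CPA1*, and their intervals overlapped. Both probe sets belong to the same transcript, so they are not independent measurements of a regulated gene.

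*ARG3*, the ornithine carbamoyltransferase that makes citrulline, read 6.66, 7.72 and 8.23 with neomycin and 5.13, 4.89 and 6.17 in untreated cells. Neomycin replicate 1 and untreated replicate 3 were the nearest values of the groups, which did not overlap. Untreated replicates 1 and 2 lay near the highest signal of a deleted gene, 4.90 for *LEU2*, so the size of the change is uncertain. Its log2 fold change of 2.14 (SE 0.44, 95% interval 1.13 to 3.15, adjusted p = 0.0875 from limma) ranked 4 of 5449 genes, and was 2.58 (adjusted p = 0.0116) without neomycin replicate 1.

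*ARG1*, the argininosuccinate synthetase, had the largest change of the pathway. It read 10.44, 11.41 and 11.47 on the neomycin arrays, against 7.72, 7.98 and 9.39 on the untreated arrays. Untreated replicate 3 was well above the other untreated cultures, and neomycin replicate 1 below the other treated ones. Its log2 fold change was 2.74 (SE 0.45, 95% interval 1.72 to 3.77), rank 2 of 5449 genes, with an adjusted p of 0.050 from limma that lay just above the threshold of 0.05. It was 3.08 (adjusted p = 0.0122) without neomycin replicate 1 and 3.26 (adjusted p = 0.0323) without untreated replicate 3. The larger change without untreated replicate 3 follows from leaving out the highest untreated value.

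The last enzyme of the route, the argininosuccinate lyase *ARG4*, read 10.87, 11.77 and 11.66 with neomycin and 10.10, 10.20 and 10.22 without it. The untreated values were tighter than those of the other members (SD 0.07, n = 3), and neomycin replicate 1 was again the lowest treated culture. Neomycin over untreated, the log2 fold change was 1.26 (SE 0.22, 95% interval 0.75 to 1.77, adjusted p = 0.0544 from limma), rank 17 of 5449 genes, and 1.54 (adjusted p = 0.00103) without neomycin replicate 1. The median over the 4 cytosolic genes was 1.7, beside 0.45 over the 4 mitochondrial ones, a comparison of lists for which no test was made.

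By limma's adjusted test over all 6 arrays 0 of the 8 synthesis genes passed, where 0.422% of all genes were called higher. At an unadjusted p under 0.05, 6 of the 8 were higher, where 5.05% of all genes were. Under the criteria of the study's methods, a ratio of mean signals of at least 1.7 with a p of at most 0.05 in a regularised Bayesian test, the same 6 genes were induced, where 1.45% of all genes were. Without neomycin replicate 1 limma called 6 of the 8 higher, where 2.18% of all genes were called higher, and all 8 were higher on both remaining neomycin arrays than on any untreated array, where 14.2% of all genes were. Without untreated replicate 3, 1 of the 8, *ARG1*, was called higher, where 0.0184% of all genes were. When any other array was left out (neomycin replicate 2 or 3, untreated replicate 1 or 2), limma called 0 of the 8 and 0% of all genes higher. In each of these settings 6 of the 8 were higher at an unadjusted p under 0.05, where 3.91%, 3.52%, 3.58% and 5.6% of all genes were.

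**Figure D2:**
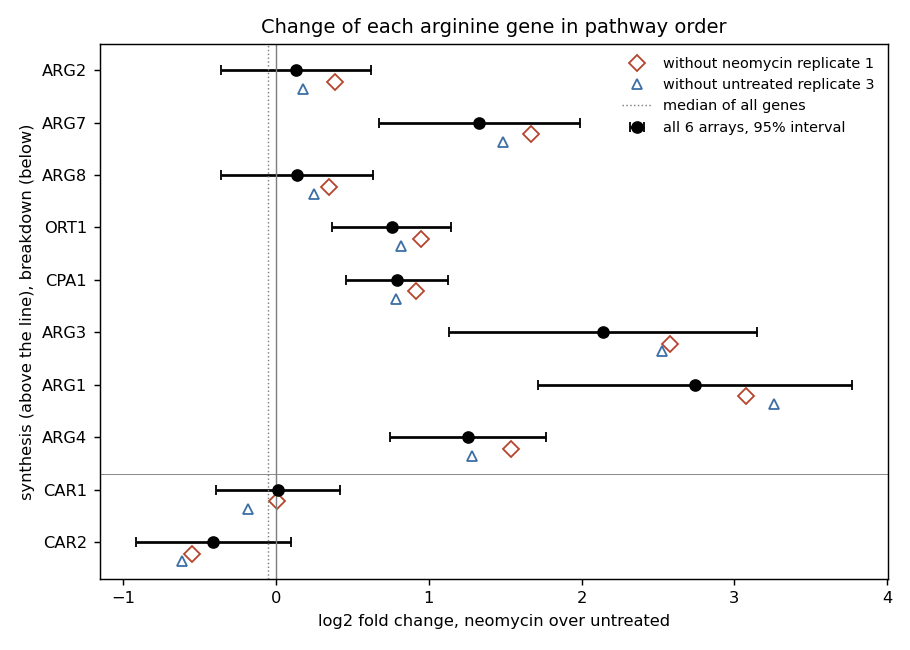
Log2 fold change of each arginine gene, neomycin over untreated, with limma's 95% interval over the 6 arrays (black). Diamonds are the values without neomycin replicate 1 and triangles those without untreated replicate 3. Genes run from top to bottom in pathway order except that *ARG7* is drawn above *ARG8*, although its step comes after that of *ARG8*. The change runs from 2.74 for *ARG1* to −0.41 for *CAR2*, and the intervals of *ARG2*, *ARG8*, *CAR1* and *CAR2* include 0.

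The opposite direction of the pathway was examined with *CAR1* and *CAR2*. *CAR1* encodes arginase, which splits arginine into ornithine and urea. Its signal was 11.56, 11.68 and 11.43 on the neomycin arrays, and 11.69, 11.79 and 11.15 on the untreated arrays. All treated values lay between the lowest and the highest untreated values. Between the conditions the log2 fold change was 0.01 (95% interval −0.39 to 0.42, adjusted p = 0.984 from limma). It was 0.01 (adjusted p = 0.994) without neomycin replicate 1 and −0.18 (adjusted p = 0.796) without untreated replicate 3.

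*CAR2* encodes the ornithine aminotransferase that carries ornithine on towards proline. It read 10.83, 10.64 and 10.17 with neomycin, against 11.14, 11.19 and 10.55 in untreated cells. Untreated replicate 3 was below neomycin replicates 1 and 2, so that the groups overlapped, although neomycin replicate 3 had the lowest value of all. A log2 fold change of −0.41 resulted (SE 0.22, 95% interval −0.92 to 0.10, adjusted p = 0.477 from limma), rank 173 of 5449 from the lowest. It was −0.55 (adjusted p = 0.313) without neomycin replicate 1. Without untreated replicate 3 it was −0.61 (adjusted p = 0.559), and *CAR1* and *CAR2* were then both lower on every neomycin array than on the 2 remaining untreated arrays, where 15.8% of all genes were. That array had the lowest untreated value of both genes, so lower changes without it follow from leaving it out and are no separate evidence. With any other array left out, 0 of the 2 were separated downwards, where 16.9% to 27.5% of all genes were. Over the 6 arrays 0 of the 2 breakdown genes passed limma's adjusted test, 0 an unadjusted p under 0.05 and 0 the ratio criteria, and 0 were separated. Over all genes, 0.0918% were called lower by limma, 8.33% were lower at an unadjusted p under 0.05, 0.367% were repressed by the ratio criteria and 12.8% were separated downwards, so that a count of 0 among 2 genes lies near each share.

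Synthesis and breakdown were then set against each other on each array, as changes relative to the mean of the untreated arrays. The median of the 8 synthesis genes was 0.60, 1.26 and 1.27 on neomycin replicates 1, 2 and 3, and the mean of *CAR1* and *CAR2* was −0.05, −0.09 and −0.45 on the same arrays. On untreated replicates 1, 2 and 3 the synthesis median was −0.03, −0.22 and 0.17, and the mean of *CAR1* and *CAR2* was 0.16, 0.24 and −0.40. The difference between synthesis and breakdown was thus 0.65, 1.35 and 1.72 on the neomycin arrays and −0.19, −0.45 and 0.58 on the untreated arrays. All 3 neomycin arrays were above the untreated ones in this difference, but neomycin replicate 1 and untreated replicate 3 were close.

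**Figure D3:**
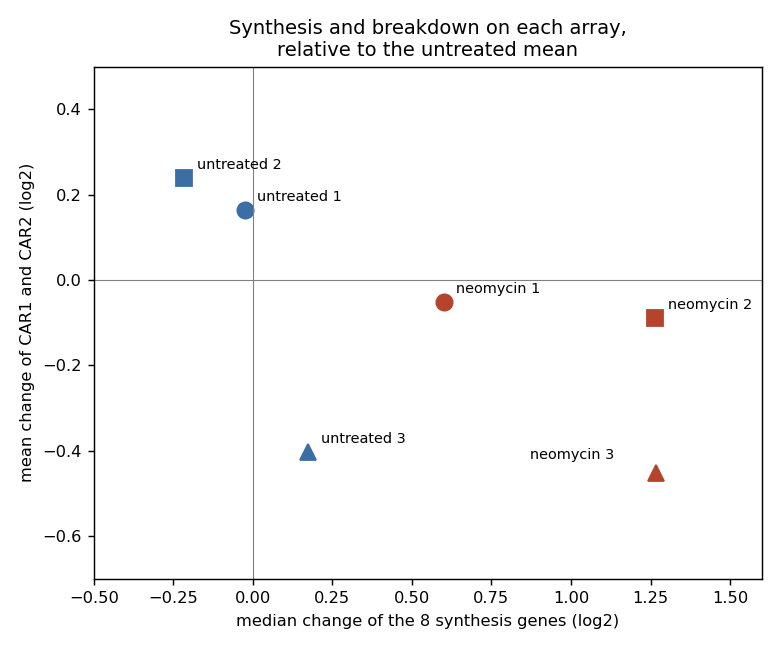
Median change of the 8 synthesis genes (horizontal axis, log2) against the mean change of *CAR1* and *CAR2* (vertical axis, log2) on each array, with the mean of the untreated arrays at 0, neomycin in red and untreated in blue. The neomycin arrays lie to the right, from 0.60 to 1.27, and replicate 3 of each condition lies lowest, at −0.45 with neomycin and −0.40 untreated.

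The genes also varied together among cultures of the same condition. Among the untreated arrays, replicate 3 had the highest value in 7 of the 8 synthesis genes, all but *CPA1*, and the lowest in both breakdown genes. Over all genes, that array was the highest of the untreated ones for 38.9% and the lowest for 26.7%. Among the neomycin arrays, replicate 1 had the lowest value in all 8 synthesis genes, where it was the lowest for 51.2% of all genes, and replicate 3 had the lowest value in both breakdown genes, where it was the lowest for 27.1%.
The spread between untreated cultures was large for the genes with the largest changes. The SD of *ARG1* over the untreated arrays was 0.90 (n = 3), greater than that of 99.8% of all genes, and that of *ARG3* was 0.68, greater than that of 99.3%. *CAR1* and *CAR2*, with SDs of 0.35 and 0.36, exceeded 94.8% and 95.4% of the genes. In contrast, the SDs of *ARG4* and *ORT1*, 0.07 and 0.10, were below the median gene's 0.13.
For the 6 separated genes, the change on neomycin replicate 1 was 0.39 to 0.67 of the mean change on the other neomycin arrays. *ARG7* and *ORT1* were at 0.39 and *ARG1* at 0.67. The median was 0.494 over the 100 genes most changed on the other neomycin arrays. Those 100 include the same 6 genes, so the 2 results are not independent. For *ARG2* and *ARG8* it was in the opposite direction, −0.38 and −0.29 relative to the untreated mean, against 0.51 and 0.40 on neomycin replicate 2.
Across the 6 arrays, which share the contrast between conditions, Pearson's r was 0.99 between *ARG7* and *ORT1*, 0.98 between *ARG3* and *ARG1*, and 0.90 between *ARG2* and *ARG8*. *CAR2* ran against the synthesis genes, with r from −0.88 with *ARG3* to −0.50 with *ARG2*, whereas *CAR1* had r between −0.41 and 0.01 with them. These values describe 6 points in 2 conditions and were not tested.

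Genes of the input, output and control of the pathway were examined next. Of 45 such genes, 42 were analysed, and the rest had no entry under the names used in the array annotation. Of the 42, 0 passed limma's adjusted test in either direction, where 0.514% of all genes were called. At an unadjusted p under 0.05, 7 of the 42 were higher and 3 lower, where 5.05% and 8.33% of all genes were. The ratio criteria were met by 3, all induced, where 1.45% of all genes were induced. Of the 42, 6 were separated upwards and 2 downwards, beside the 5.58% and 12.8% of all genes. Their median log2 fold change was 0.02. Without neomycin replicate 1, 4 of them were called higher, *RTC2*, *GAP1*, *GAT1* and YOR302W, and 0 lower, where 2.18% and 0.422% of all genes were called. When any of the other 5 arrays was left out, 0 of the 42 were called in either direction, and the adjusted p of *RTC2* was then 0.150 to 0.261 and that of *GAP1* 0.254 to 0.559.
The transcripts of the regulators came first. *GCN4*, whose protein level is set mainly by translation, read 12.84, 12.88 and 12.94 with neomycin, against 12.75, 12.93 and 12.85 without it, and its log2 fold change was 0.04 (limma, 95% interval −0.19 to 0.27). *ARG80*, *ARG81* and *MCM1*, which encode DNA-binding proteins of the arginine complex, had log2 fold changes of 0.02, −0.15 and −0.04. *ARG82*, the inositol polyphosphate kinase of that complex, had −0.32 and *UME6*, which represses *CAR1* and *CAR2*, had 0.30. Of these 6 regulators 0 were separated between the conditions, near the 18.4% of all genes, and their lowest adjusted p was 0.461.
Among the genes of proline metabolism, *PUT1*, the proline oxidase, read 8.0, 8.30 and 8.76 on the neomycin arrays and 7.89, 7.67 and 7.37 on the untreated arrays. All treated values were above all untreated ones, with a log2 fold change of 0.71 (SE 0.21, adjusted p = 0.234 from limma). *PUT2*, which encodes the following enzyme and also finishes the breakdown of arginine, lay the other way, with a log2 fold change of −0.36 (SE 0.15, adjusted p = 0.351) and no overlap. *PRO1* and *PRO2*, which encode the first enzymes of proline synthesis, had values of −0.10 and 0.05.
Of the genes that lead from ornithine to polyamines, the ornithine decarboxylase *SPE1* had a log2 fold change of −0.06 (95% interval −0.32 to 0.21). *SPE2*, the adenosylmethionine decarboxylase, was lower on each neomycin array (−0.40, SE 0.13, adjusted p = 0.260 from limma), and *OAZ1*, the antizyme that promotes degradation of the decarboxylase, had 0.34 (SE 0.21, adjusted p = 0.528).
In the list of arginine transport, the vacuolar exporter *RTC2* read 7.48, 8.24 and 8.27 on the neomycin arrays and 6.67, 6.98 and 6.88 on the untreated arrays. The general amino acid permease *GAP1* read 9.06, 10.22 and 9.82, against 8.78, 8.73 and 8.78 in untreated cells. Neither pair of groups overlapped, and in both genes neomycin replicate 1 was the lowest treated culture. Their log2 fold changes were 1.15 (SE 0.21, adjusted p = 0.0641 from limma) and 0.93 (SE 0.26, adjusted p = 0.199), and their adjusted p without neomycin replicate 1 was 0.00235 and 0.00584.
The arginine permease *CAN1*, in contrast, had a log2 fold change of 0.19 (95% interval −0.28 to 0.67). *ALP1*, a basic amino acid permease close to it in sequence, had one of −0.42 (SE 0.15, adjusted p = 0.296 from limma). The *ALP1* signals, 4.44 to 5.14, lay near the 4.50 to 4.90 of the deleted *LEU2*, and the groups overlapped, so its change is uncertain.
The genes that supply glutamate, glutamine and aspartate had log2 fold changes between −0.12 and 0.37, the highest being that of *AAT2*, the cytosolic aspartate aminotransferase (SE 0.15, adjusted p = 0.364 from limma). *GAT1*, a GATA activator of genes for nitrogen use, read 8.85, 9.10 and 9.09 with neomycin and 8.17, 8.46 and 8.26 without it. Its groups did not overlap, and its log2 fold change was 0.71 (SE 0.12, adjusted p = 0.0536), or adjusted p = 0.0234 without neomycin replicate 1. The GATA factors *GLN3* and *GZF3* and the urea permease *DUR3* had log2 fold changes of 0.31, 0.33 and 0.39.

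**Figure D4:**
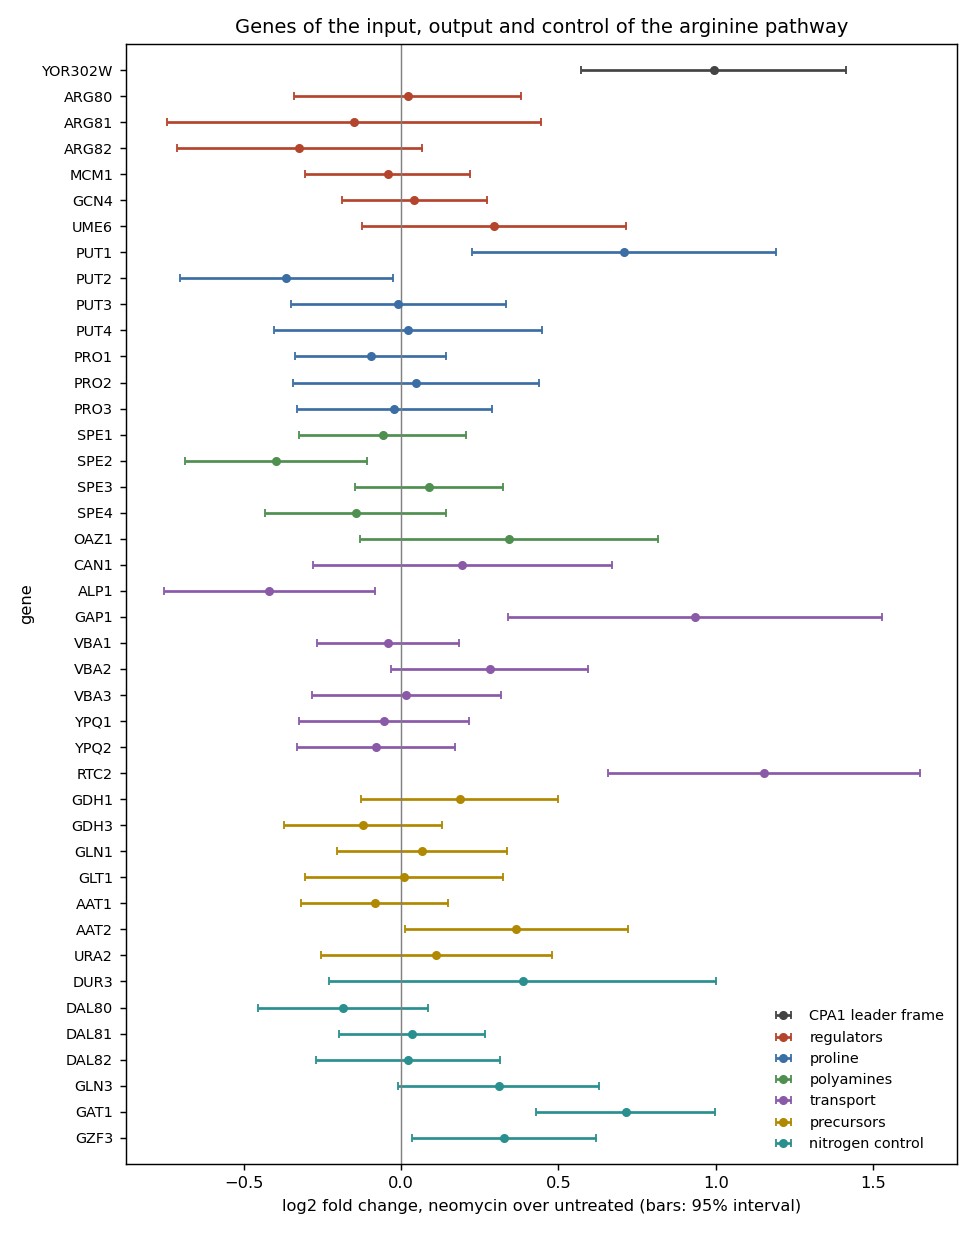
Log2 fold change, neomycin over untreated, with limma's 95% interval (bars), of the 42 analysed genes of the input, output and control of the arginine pathway, coloured by list. *RTC2*, YOR302W, *GAP1*, *GAT1* and *PUT1* have the largest positive values, 1.15 to 0.71. *ALP1*, with a signal near that of the deleted *LEU2*, has the lowest, −0.42.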

How the data were processed

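The deposited values are log2 GCRMA signals of 5716 probe sets on 6 arrays, from 2.22 to 14.31. The authors ran GCRMA, which corrects background, normalises arrays against each other and summarises probes. Its version is not given. Of the probe sets, 5498 name a single gene in the array annotation, and the probe set with the highest mean was taken for 47 genes with several, which left 5449 genes. Neomycin was compared with untreated cells by limma 3.58.1 in R 4.3.3 (lmFit, eBayes, 4.03 prior degrees of freedom), 2-sided, with Benjamini-Hochberg adjustment over the 5449 genes and a threshold of 0.05. The regularised Bayesian test of the methods was rebuilt for log2 signals (window 101 genes, confidence 10), settings their authors do not state. Scripts were tested on simulated data. The replicate number as a block, other scaling, filters and priors, and leaving out each array were tried as alternatives. Counts of separated genes and of the ratio criteria without single arrays were added after seeing the data.

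The arginine genes, the lists and the rules for naming genes (every member, the regulators, and in each list the genes past the threshold or up to 4 with the largest changes) were chosen with earlier results of these data known. *SPE1* and *CAN1* fall outside the naming rule and were named after their values were seen. Some genes of the pathway and of the lists were not analysed here. Precision is limited by the 3 arrays per condition.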

Additional observations from a re-analysis of the deposited data

How the results depend on the processing

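With limma over all arrays 23 genes were higher and 5 lower, and 0 of the 8 synthesis genes passed. The synthesis genes called higher numbered 3 of 8 after quantile normalisation (50 of all genes higher, 5 lower) and 3 with median centring (42 and 7), 3 of the 6 left without the 1363 dimmest genes (40 and 7), 4 with an intensity trend (48 and 14), 4 at an adjusted p under 0.1 (59 and 23) and 6 by the ratio criteria (79 and 20). In these settings *ARG1*, *ARG4* and *CPA1* passed each time, and fewer genes were tested without the dimmest ones. Leaving out each array in turn gave 0 to 6 synthesis genes, 0 to 119 higher genes and 0 to 23 lower genes, the highest counts being those without neomycin replicate 1. The ratio criteria held for 4 to 6 of the 8 in the same way, where 1.23% to 2.17% of all genes were induced. With the replicate number as a block limma called 0 genes in each direction (unadjusted p under 0.05 for 284 upwards and 378 downwards), and 0 of the 8, whose lowest adjusted p was 0.0782. The deviations of same-numbered arrays correlated with r = −0.0003, −0.38 and 0.44 for replicates 1, 2 and 3, so the numbers did not match alike arrays throughout. Neomycin replicate 1 with untreated replicate 2, and neomycin replicate 2 with untreated replicate 1, each had r = 0.40. The remaining combinations had r from −0.43 to 0.0007. Whether cultures belong together in another order was not tested. Without single arrays the log2 fold change ran from −0.061 to 0.38 for *ARG2*, from −0.037 to 0.35 for *ARG8* and −0.18 to 0.14 for *CAR1*, all changing sign, while the other 7 members kept theirs. The synthesis median ran from 0.91 to 1.25 and its difference from breakdown from 0.98 to 1.52. The cause of these differences was not tested.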

Other observations

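The chromosomal neighbours of the arginine genes were also measured. In the order of the reference annotation, the 10 genes have 20 direct neighbours, all measured, and the 19 other than the leader frame of *CPA1* had log2 fold changes from −0.22 to 0.54 with a median of −0.03. Of these 19, 0 were higher on all neomycin arrays than on any untreated array, where 5.58% of all genes were, and 1 was lower on all of them, *DIF1* beside *CAR2* (−0.22, SE 0.10, adjusted p = 0.372 from limma), where 12.8% of all genes were. The highest was *SIP4*, beside *ARG3*, with 0.54 (SE 0.22, adjusted p = 0.359 from limma). The 8 synthesis genes lie on 4 chromosomes, 4 of them on XV. The neighbours were looked at after the values of the arginine genes were known.

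Among the 368 other genes whose values span at least 1 on the log2 scale, those whose profile over the 6 arrays was most like that of *ARG1* by Pearson's r were *GSC2* (r = 0.98), a catalytic subunit of glucan synthase, *STR3* (0.98), a cystathionine beta-lyase, *FIT2* (0.96), a cell wall mannoprotein, *LYS1* (0.96), the saccharopine dehydrogenase of lysine synthesis, and *CLD1* (0.96), a cardiolipin phospholipase. *GSC2* read 10.87, 11.35 and 11.70 on the neomycin arrays and 9.35, 9.20 and 9.87 on the untreated arrays, so that it shares with *ARG1* the low neomycin replicate 1 and the high untreated replicate 3. The genes most like *CAR1* were YNR014W (0.90), *HXT2* (0.86), a glucose transporter, *MTH1* (0.86), a regulator of glucose transporter genes, YLR108C (0.85) and *TDA1* (0.85). In these the groups overlapped, and replicate 3 was the lowest of its condition in both conditions, as for *CAR1*. *HXT2* read 11.87, 12.02 and 11.23 with neomycin, against 11.83, 11.56 and 10.49 in untreated cells. These correlations describe 6 arrays and were not tested.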
